A study of Mus musculus with 6 samples.

Results

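The day-night difference of the liver transcriptome on a high-fat diet was read from 2 of the 6 Illumina bead arrays of the study, HFD at ZT14 and HFD at ZT2. Zeitgeber time (ZT) counts hours from lights on, so ZT14 lies 2 h after lights off and ZT2 lies 2 h after lights on. Of 45281 probes, 14736 had a detection p under 0.01 on at least 1 of the 2 HFD arrays. The 12754 of these that carried 1 gene symbol stood for 8733 genes, and 8705 remained after 28 skeletal muscle genes were set aside. The difference per gene was the log2 level at ZT14 minus the log2 level at ZT2.

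The HFD mice were C57BL/6J, 18 weeks old at harvest, and had received vehicle by mouth every other day for 10 weeks. The chow mice (RC, labelled regulatory chow) were of the same strain and age, also with vehicle, and were harvested at the same times. A further arm on the high-fat diet received nobiletin, a citrus flavone, at 200 mg/kg in place of vehicle (NOB). All were fed ad libitum under a light-dark cycle, and the series was made to examine what the diet and nobiletin do to the liver transcriptome. Each array held total liver RNA pooled from 4 mice, so every group is 1 array, the spread between mice is not known, and all differences are values with no replicate check and no test. No label states the sex of the mice.

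The liver clock is a feedback loop. In it, CLOCK and BMAL1 (the product of Arntl) bind E-boxes and drive the genes of their own repressors, the PER and CRY proteins. A second loop runs through the REV-ERB receptors (Nr1d1, Nr1d2), which repress Arntl, and the ROR receptors, which activate it through the same DNA element. The PAR bZIP factors DBP and TEF carry the rhythm to genes of metabolism, and feeding, glucocorticoids and body temperature drive further rhythmic genes in this tissue.

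On each of the HFD and RC arrays, 12712 to 14470 probes were detected, and the median raw intensity of all 6 arrays was 57.5 to 62.4. The labelled tissue was checked on 10 hepatocyte markers, all of which were detected on both HFD arrays. Their median level was 13.02 in HFD at ZT14 and 13.05 in HFD at ZT2, against 13.50 in RC at ZT14 and 13.43 in RC at ZT2, on a log2 scale whose highest level was 14.60. The probe of the albumin gene Alb was dim on every array, at 5.14 in HFD at ZT14 and 4.88 in HFD at ZT2, while Apoa1, Ttr and Trf lay above 14 in HFD. In bulk RNA, fewer cells of a type and less RNA per cell cannot be told apart.

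Several clock genes with a high level at dusk in RC did not have it in HFD, and Arntl differed in opposite directions, so promoter sequence of these genes is shown first, from the RefSeq promoter table on GRCm38.p6. Each window spans 250 bases before to 50 bases after an annotated gene start, and 7104 of the 8705 genes had one. The windows were searched on both strands for the E-box (CACGTG), the D-box (TTATGTAA or TTACGTAA) and the ROR element (ANTAGGTCA, ANTGGGTCA, TNTAGGTCA or TNTGGGTCA), none of which overlapped in the stretches printed. Ciart held 3 E-boxes, starting 116, 58 and 44 bases before its start, Per1 held 1 at 166 bases, Tef held 1 at 127 bases and 1 in a second window, and Cipc held 1 at 17 bases. Arntl held a ROR element 29 bases after the gene start of 1 of its windows. The sequences run 5′ to 3′ in the direction of the gene and end at the base before the start, except that of Arntl, which shows 25 bases around the element. Capitals mark the motif.
Ciart, chr3:95882229-95882478, minus strand: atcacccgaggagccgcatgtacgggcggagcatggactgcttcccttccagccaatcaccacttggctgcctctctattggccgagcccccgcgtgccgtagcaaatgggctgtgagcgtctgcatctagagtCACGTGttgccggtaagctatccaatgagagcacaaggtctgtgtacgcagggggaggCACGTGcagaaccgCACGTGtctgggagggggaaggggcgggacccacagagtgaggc
Per1, chr11:69098699-69098948, plus strand: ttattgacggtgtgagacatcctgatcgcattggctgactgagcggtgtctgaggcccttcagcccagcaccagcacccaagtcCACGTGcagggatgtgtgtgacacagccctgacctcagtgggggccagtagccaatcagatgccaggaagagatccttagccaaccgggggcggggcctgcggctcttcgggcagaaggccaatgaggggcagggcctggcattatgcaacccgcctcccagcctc
Tef, chr15:81802423-81802672, plus strand: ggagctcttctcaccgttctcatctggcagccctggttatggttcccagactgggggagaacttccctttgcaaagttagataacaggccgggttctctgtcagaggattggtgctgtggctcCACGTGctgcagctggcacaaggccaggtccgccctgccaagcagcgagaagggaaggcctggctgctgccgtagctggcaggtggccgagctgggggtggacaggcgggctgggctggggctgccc
Cipc, chr12:86947093-86947342, plus strand: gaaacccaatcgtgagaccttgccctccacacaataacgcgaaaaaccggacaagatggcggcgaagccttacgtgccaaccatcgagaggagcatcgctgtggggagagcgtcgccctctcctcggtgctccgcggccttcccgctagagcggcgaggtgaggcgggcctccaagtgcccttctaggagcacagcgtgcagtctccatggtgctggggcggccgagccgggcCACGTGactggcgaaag
Arntl, chr7:113207531-113207555, plus strand: aggcagaaAGTAGGTCAgggacgga
The windows of Dbp, Nr1d1, Nr1d2 and Usp2 held none of the 3 motifs, which says only that these letters are not in these windows. Among the 27025 genes of the table, 8.09% had an E-box, 1.23% a D-box and 3.66% a ROR element in a window, and among the measured genes 12.1%, 0.915% and 3.2% did.

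Over all genes, the day-night difference on the high-fat diet was small. The 5th and 95th percentiles were -0.48 and 0.48, the median was -0.02, and the SD across genes was 0.32 in HFD, against 0.37 in RC. In HFD, 60 genes were at least 2-fold higher at ZT14, which is 0.689% of 8705, and 32 were at least 2-fold lower, which is 0.368%. In RC, the same limit was passed upward by 71 of these genes (0.816%) and downward by 78 (0.896%). Thus 92 genes passed 2-fold on the high-fat diet, against 149 on chow.

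Genes were sorted by both differences. A gene was called kept when it differed at least 2-fold the same way in both diets, lost when it passed 2-fold in RC and stayed under 1.5-fold either way in HFD, and gained in the opposite case. A reversed gene had opposite directions, at least 2-fold in 1 diet and at least 1.5-fold in the other. The classes describe the difference between ZT14 and ZT2 only. With 2 times per diet, a shifted time of peak and a changed size of rhythm cannot be told apart. By this rule 19 genes were kept (0.218%), 88 were lost (1.01%), 44 were gained (0.505%) and 13 were reversed (0.149%). A further 48 genes lay between these limits, and 8 that passed 2-fold in HFD were detected on neither RC array. The 19 kept genes made up 12.8% of the RC genes and 20.7% of the HFD genes past 2-fold. Genes were sorted on their measured differences also where an array did not detect them, and 14 of the kept, 68 of the lost, 37 of the gained and 10 of the reversed genes were detected on all 4 arrays.

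Direction was shared more often than size. Of the 149 genes past 2-fold in RC, 121 had the same sign in HFD, and 88, or 59.1%, were lost. The share of all 8705 genes with the same sign in both diets was not counted. The median size of the difference of the 149 genes was 0.43 in HFD, against 1.19 in RC. The 71 genes higher at ZT14 in RC had a median of 0.43 in HFD, against 1.17 in RC, and the 78 lower ones had a median of -0.38 in HFD, against -1.21 in RC. Selection fixes part of this: 142 of the 149 genes past 2-fold in RC were smaller in HFD, and likewise 78 of the 92 past 2-fold in HFD were smaller in RC. Over all 8705 genes, which are not independent replicates, the HFD and RC differences correlated at r = 0.20, with no array in common.

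**Figure D1:**
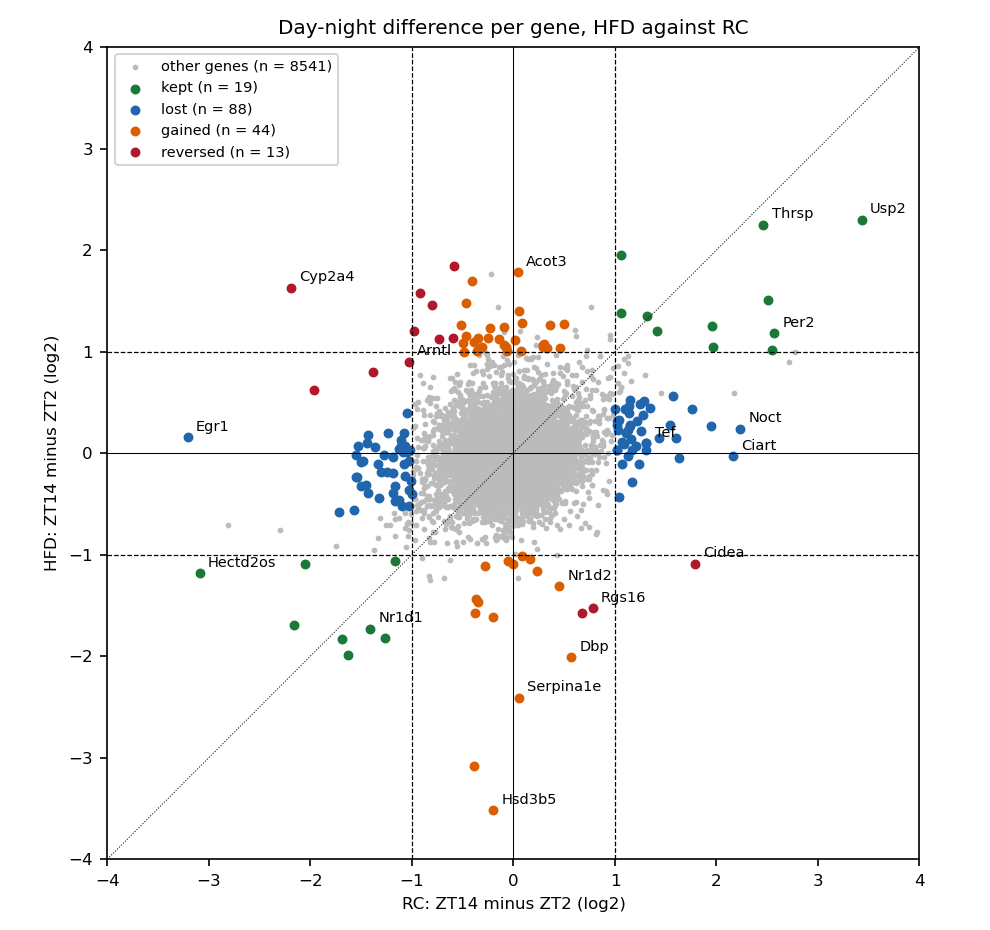
Day-night difference of each gene (log2, ZT14 minus ZT2) in HFD on the vertical axis against RC on the horizontal axis, with 1 point per gene and colours for the kept, lost, gained and reversed genes. The 88 lost genes lie in a horizontal band near 0 in HFD on both sides of the plot, while the 44 gained genes lie in a vertical band near 0 in RC.

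The clock repressors were mostly higher at dusk in both diets, with a smaller difference on the high-fat diet for each of the 5 measured. Per2, a core repressor, was at 8.73 in HFD at ZT14 and 7.55 in HFD at ZT2, against 9.79 in RC at ZT14 and 7.21 in RC at ZT2. This is 2.26-fold in HFD, against 5.96-fold in RC, so Per2 was kept. Per1 was at 6.91 and 6.69 in HFD at ZT14 and ZT2, against 7.25 and 5.99 in RC at ZT14 and ZT2. Its log2 difference was 0.22 in HFD, against 1.26 in RC, so Per1 was lost, and its 2 probes gave 0.22 and 0.30 in HFD. Ciart, whose product represses CLOCK and BMAL1 and whose window holds the 3 E-boxes printed above, had levels of 5.80 and 5.82 in HFD at ZT14 and ZT2, against 7.45 and 5.29 in RC at ZT14 and ZT2. The dusk level of Ciart was thus 4.48-fold above its dawn level in RC and level with it in HFD, at -0.03 with the brighter probe and 0.24 with the other. Bhlhe40, an E-box repressor, differed by 0.60 in HFD and 1.04 in RC, and the repressor Cry2 by 0.53 in HFD and 0.94 in RC.

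The activators differed from each other. Arntl was at 6.26 in HFD at ZT14 and 5.36 in HFD at ZT2, against 5.85 in RC at ZT14 and 6.89 in RC at ZT2. The day-night difference of Arntl was therefore 0.90 in HFD and -1.03 in RC, which made it a reversed gene. These values were 0.56 and -0.73 with an offset of 50, in place of 16, added to each intensity before log2, and 0.52 and -0.69 with no background correction, so the directions stayed opposite and neither diet reached 2-fold. Arntl was highest at dawn on chow and lowest at dawn on the high-fat diet among these 4 arrays. Its partner Clock, a histone acetyltransferase, differed little, by -0.37 in HFD and -0.10 in RC.

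Both repressing receptors were lower at dusk on the high-fat diet. Nr1d1 (REV-ERB alpha) was at 4.44 in HFD at ZT14, where it was not detected, and 6.18 in HFD at ZT2, against 4.87 in RC at ZT14 and 6.28 in RC at ZT2. Where a gene was not detected on 1 array, its fold is given as a bound, taken against the lowest level of any detected probe there or its own level, whichever is higher. Nr1d1 was at least 2.19-fold lower at ZT14 in HFD and at least 2.24-fold lower in RC, and was kept. Its relative Nr1d2 (REV-ERB beta) was gained, at 5.33 and 6.64 in HFD at ZT14 and ZT2, against 6.52 and 6.07 in RC at ZT14 and ZT2. That is a log2 difference of -1.31 in HFD and 0.45 in RC. Rora differed by -0.13 in HFD and -0.01 in RC.

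Dbp, the output factor of the E-box loop, had the widest gap between diets among the clock genes lower at dusk in HFD. Its levels were 8.44 and 10.45 in HFD at ZT14 and ZT2, against 9.23 and 8.66 in RC at ZT14 and ZT2. Dbp was 4.04-fold lower at ZT14 in HFD, while in RC it was 1.48-fold higher. Tef, of the same family, was lost, with levels of 8.50 and 8.41 in HFD at ZT14 and ZT2, against 9.17 and 7.86 in RC at ZT14 and ZT2. Counted together, 1 of the 12 measured clock genes was higher and 3 were lower by at least 2-fold at ZT14 in HFD, with a median of 0.03. In RC, 5 were at least 2-fold higher and 2 lower, with a median of 0.75. With an offset of 50 or no background correction, Dbp alone was at least 2-fold lower in HFD, as Nr1d2 then lay at -0.85 and -0.79 and Nr1d1 at -0.93 and -0.91. Per1 lay at 0.93 and 0.89 in RC in those settings, short of 2-fold.

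**Figure D2:**
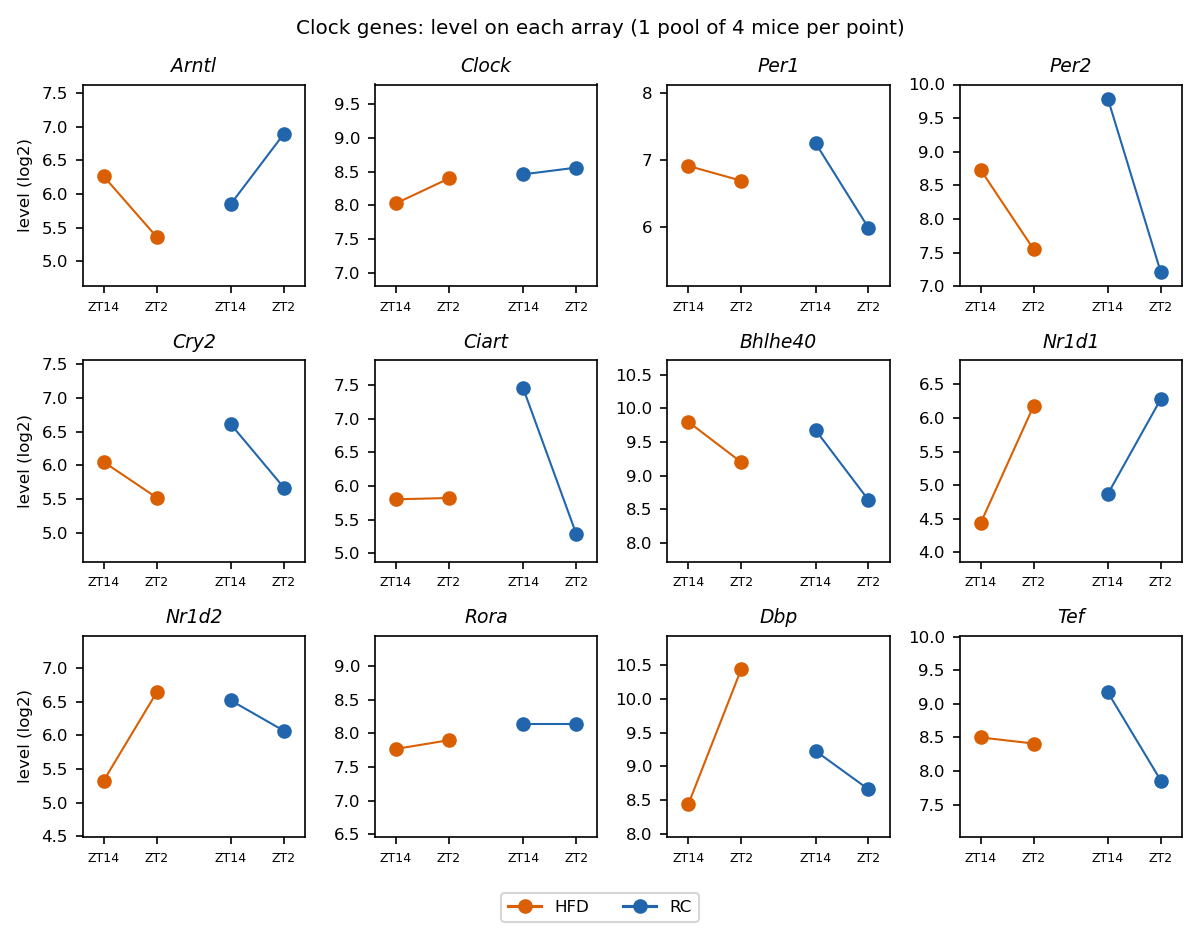
Log2 level of each measured clock gene on the 4 arrays, ZT14 then ZT2, with HFD on the left of each panel and RC on the right; each point is 1 pool of 4 mice, so there are no error bars. Per1, Ciart and Tef slope in RC and lie nearly flat in HFD, Arntl slopes in opposite directions, and Dbp and Nr1d2 fall away at ZT14 in HFD alone of these 2 diets.

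The size of the difference was smaller in HFD than in RC for 5 of 7 clock regulators and 15 of 19 clock outputs. Over all 8705 genes, 4691 were smaller in HFD. The 7 regulators had medians of 0.10 in HFD and 0.12 in RC, with 1 at least 2-fold higher at ZT14 in HFD and 2 in RC. Usp2, which encodes a deubiquitinase of clock proteins, had the largest dusk excess in HFD of genes detected on both HFD arrays. Its levels were 8.57 and 6.27 in HFD at ZT14 and ZT2, against 9.83 and 6.40 in RC at ZT14 and ZT2, or 4.93-fold in HFD and 10.7-fold in RC. Cipc, an inhibitor of CLOCK, was lost, at 0.39 in HFD and 1.14 in RC. Of 19 measured genes of clock output, 2 were higher and 1 lower by at least 2-fold at ZT14 in HFD, with a median of 0.27. In RC, 8 of these were higher and 1 lower, with a median of 0.78, and 6 of the 19 were lost. Cdkn1a, in the output list, differed more in HFD, at 1.44, than in RC, at 0.76.

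The lost outputs included enzymes and transporters that were high at dusk on chow. Noct (nocturnin, a rhythmic phosphatase of liver) was at 7.41 and 7.17 in HFD at ZT14 and ZT2, against 8.93 and 6.69 in RC at ZT14 and ZT2. Mfsd2a, a lysophospholipid transporter, was at 11.32 and 11.05 in HFD at ZT14 and ZT2, against 9.88 and 7.92 in RC at ZT14 and ZT2. It thus lay above both chow arrays at both times on the high-fat diet. Gys2, the liver glycogen synthase, differed by 0.15 in HFD and 1.60 in RC. Elovl3, a fatty acid elongase, was lost from the other side, at 6.88 and 6.81 in HFD at ZT14 and ZT2, against 6.86 and 8.39 in RC at ZT14 and ZT2.

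Among all 88 lost genes, 43 were higher and 45 lower at ZT14 in RC. The immediate-early factor Egr1 had the widest gap, at 8.49 and 8.34 in HFD at ZT14 and ZT2, against 5.78 and 8.99 in RC at ZT14 and ZT2. Its dusk level was 9.27-fold below its dawn level in RC, and near it in HFD. Cyp2b10, a drug-metabolizing cytochrome P450 and target of the receptor CAR, was at 5.92 and 5.97 in HFD at ZT14 and ZT2, against 10.10 and 8.47 in RC at ZT14 and ZT2, so that both HFD levels lay below both chow levels. Nrep, Tmc7 and the keratin gene Krt23 completed the 10 lost genes with the widest gaps, with HFD differences of -0.43, -0.29 and 0.39, against 1.04, 1.17 and -1.05 in RC. These 3 and Cipc did not reach 2-fold in RC with an offset of 50 or with no background correction. Of the 72 lost genes with a promoter window, 16, or 22.2%, held an E-box, beside 12.1% of the measured genes. The share was 21.8% of 55 for genes at least 2-fold higher and 16.4% of 67 for genes at least 2-fold lower at ZT14 in RC, and 8% of 50 for those at least 2-fold higher at ZT14 in HFD. It was 0 of 16 for kept genes, 2 of 35 (5.71%) for gained genes and 1 of 11 (9.09%) for reversed genes.

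Among the 19 kept genes, 11 were higher and 8 lower at ZT14 in both diets. Thrsp, a protein of fat synthesis, was at 12.94 and 10.69 in HFD at ZT14 and ZT2, against 12.51 and 10.05 in RC at ZT14 and ZT2. Its 2 probes gave 2.25 and 1.0 in HFD. Angptl8, a feeding-induced regulator of lipoprotein lipase, was 2.85-fold higher at ZT14 in HFD, against 5.68-fold in RC. The fatty acid elongase Elovl6 lay at 1.2 in HFD and 1.41 in RC, and the glycogen-targeting phosphatase subunit Ppp1r3b at 1.35 in HFD and 1.32 in RC. Both differences were close in size in the 2 diets.

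Among the kept genes that were lower at dusk, Depp1, a target of FOXO factors, was at 9.19 and 11.18 in HFD at ZT14 and ZT2, against 8.07 and 9.70 in RC at ZT14 and ZT2. Socs2, a feedback inhibitor of growth hormone signalling, was 3.53-fold lower at ZT14 in HFD, against 2.42-fold in RC. Chac1, a glutathione-degrading enzyme, was 3.23-fold lower in HFD, against 4.46-fold in RC. Ppp1r3g, another glycogen-targeting subunit, was not detected at ZT14 in HFD and was at least 3.42-fold lower there, against at least 2.06-fold in RC.

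**Figure D3:**
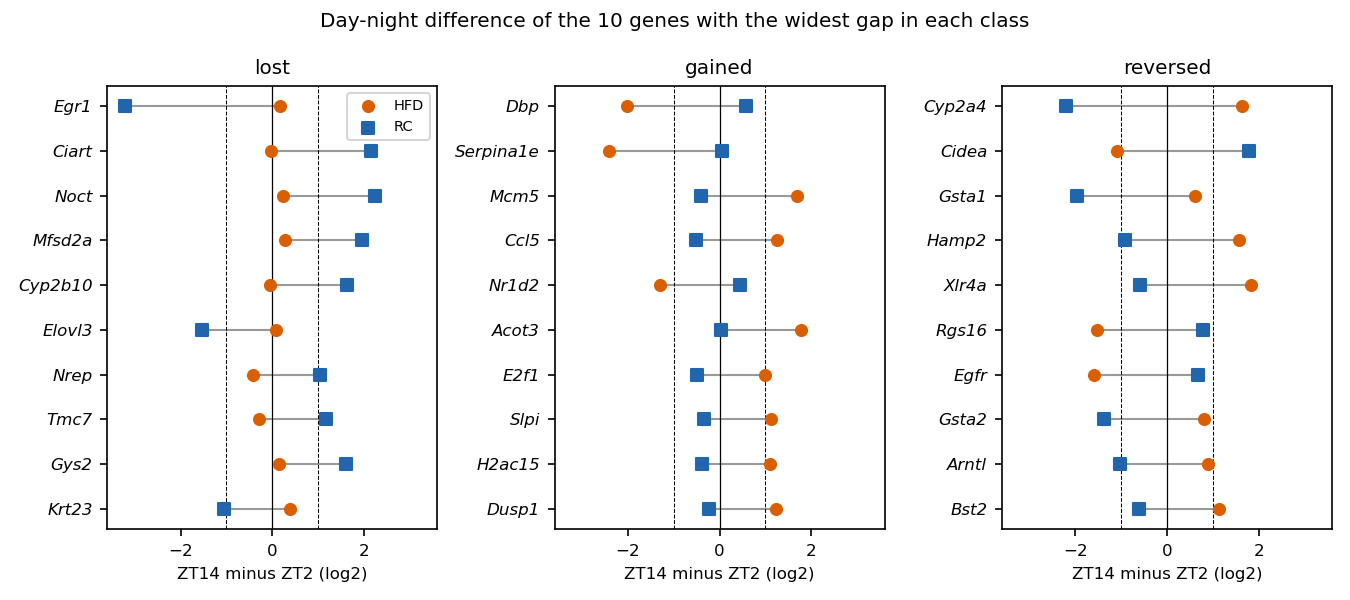
Day-night difference (log2, ZT14 minus ZT2) of the 10 lost, 10 gained and 10 reversed genes with the widest gap between diets, with HFD as circles and RC as squares. Egr1 reaches -3.21 in RC and lies near 0 in HFD, Dbp and Serpina1e lie below -2 in HFD, and the reversed genes have their 2 points on opposite sides of 0.

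The 44 gained genes were 29 higher and 15 lower at ZT14 in HFD. Serpina1e, a member of the near-identical alpha-1-antitrypsin family, was at 10.86 and 13.26 in HFD at ZT14 and ZT2, against 14.40 and 14.35 in RC at ZT14 and ZT2. It was 5.31-fold lower at ZT14 in HFD, and both HFD levels lay below both RC levels. The RC levels were close to the highest level of the scale, 14.60, which limits what difference could be seen in RC. Acot3, a peroxisomal acyl-CoA thioesterase, was at 9.78 and 8.0 in HFD at ZT14 and ZT2, against 6.96 and 6.93 in RC at ZT14 and ZT2. Dusp1, a phosphatase of MAP kinases, was at 10.06 and 8.83 in HFD at ZT14 and ZT2, against 9.46 and 9.70 in RC at ZT14 and ZT2. The rest of the 10 gained genes with the widest gaps were the chemokine gene Ccl5 at 1.26 in HFD, the protease inhibitor gene Slpi at 1.13, the histone gene H2ac15 at 1.09, the S-phase factor gene E2f1 at 1.0, and Dbp, Nr1d2 and Mcm5. Of these, Ccl5, Slpi, H2ac15, E2f1 and Nr1d2 did not reach 2-fold in HFD with an offset of 50 or with no background correction.

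Genes of DNA replication and cell division were higher at ZT14 on the high-fat diet. Of 12 measured, 4 were at least 2-fold higher and 0 lower in HFD. In HFD 11 lay above 0, against 1 in RC, with medians of 0.71 in HFD and -0.16 in RC. Of all 8705 genes, 4051 lay above 0 and 4633 below 0 in HFD, and their medians were -0.02 in both diets. Mcm5, a subunit of the replicative helicase, was at 8.12 and 6.43 in HFD at ZT14 and ZT2, against 5.76 and 6.17 in RC at ZT14 and ZT2. The other 3 past 2-fold were the helicase gene Mcm6 at 1.15, the ribonucleotide reductase gene Rrm2 at 1.14 and the mitotic kinase gene Cdk1 at 1.04. Outside that list, Uhrf1, which maintains DNA methylation at replication, was at 6.65 and 5.17 in HFD at ZT14 and ZT2, against 4.56 and 5.03 in RC at ZT14 and ZT2, where 1 array detected it. The DNA ligase gene Lig1 lay at 7.0 and 5.54 in HFD at ZT14 and ZT2, against 4.55 in RC at ZT14, where it was not detected, and 5.36 in RC at ZT2. It was counted as reversed, though its RC difference is bounded only at 1.18-fold. Cdk1 and Rrm2 were detected on neither RC array, and Mcm6 on 1. These genes were dim: with an offset of 50 in place of 16, or with no background correction, 1 of the 12 passed 2-fold.

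Genes that differ between male and female mouse liver lay on opposite sides. Of 12 measured male-biased genes, 0 were higher and 3 lower by at least 2-fold at ZT14 in HFD. In HFD 11 lay below 0, against 6 in RC, with medians of -0.51 in HFD and 0.02 in RC. Hsd3b5, a steroid dehydrogenase of male liver, was at 4.37 and 7.89 in HFD at ZT14 and ZT2, against 10.87 and 11.07 in RC at ZT14 and ZT2. It was not detected in HFD at ZT14 and was at least 7.19-fold lower there. Over the 6 other settings run, its log2 difference in HFD lay between -3.77 and -2.26. Cyp4a12b, a fatty acid hydroxylase, was at 4.91 and 8.0 in HFD at ZT14 and ZT2, against 10.52 and 10.92 in RC at ZT14 and ZT2, which is at least 7.75-fold lower at ZT14 in HFD. Its near-identical neighbour Cyp4a12a was 2.99-fold lower at ZT14 in HFD, and whether the 2 probes share signal was not tested.

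Of 5 measured female-biased genes, 4 were at least 2-fold higher and 0 lower at ZT14 in HFD, with a median of 1.2, against 0.04 in RC. They were Acot3, the cytochrome P450 genes Cyp2a4 and Cyp2b13, and Cyp17a1, which encodes a steroid hydroxylase. Cyp2b13 was at 9.37 and 8.17 in HFD at ZT14 and ZT2, against 4.32 and 4.26 in RC at ZT14 and ZT2, where neither array detected it. Cyp17a1 differed by 1.04 in HFD and -0.07 in RC, and by 0.97 in HFD with an offset of 50. Each pool holds 4 mice whose individual levels are not known, so the part of single mice in these differences was not tested.

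Reversed genes were 10 higher and 3 lower at ZT14 in HFD. Cyp2a4, a steroid hydroxylase with a near-identical neighbour in Cyp2a5, had the widest gap, at 7.53 and 5.90 in HFD at ZT14 and ZT2, against 5.21 and 7.40 in RC at ZT14 and ZT2. Cyp2a5 itself had the same direction in both diets, at 0.77 in HFD and 1.30 in RC. Hamp2, a relative of the iron hormone hepcidin, was at 12.45 and 10.88 in HFD at ZT14 and ZT2, against 11.13 and 12.05 in RC at ZT14 and ZT2. The glutathione transferase genes Gsta1 and Gsta2 differed by 0.62 and 0.80 in HFD, against -1.96 and -1.38 in RC. Bst2, which encodes the antiviral protein tetherin, differed by 1.13 in HFD and -0.60 in RC, and Xlr4a by 1.84 in HFD and -0.59 in RC.

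The 3 reversed genes that were lower at dusk on the high-fat diet were Cidea, Rgs16 and Egfr. Cidea, a protein that enlarges lipid droplets, was at 8.66 and 9.75 in HFD at ZT14 and ZT2, against 7.93 and 6.14 in RC at ZT14 and ZT2. Rgs16, a regulator of G protein signalling, was at 10.01 and 11.54 in HFD at ZT14 and ZT2, against 6.82 and 6.05 in RC at ZT14 and ZT2. Both genes were brighter on both HFD arrays than on either RC array. Egfr, the receptor of epidermal growth factor, was at 8.20 and 9.78 in HFD at ZT14 and ZT2, against 11.10 and 10.42 in RC at ZT14 and ZT2. Its 5 probes gave HFD differences between -1.58 and -0.54, and with their mean Egfr lay at -0.99, short of 2-fold. With an offset of 50 or no background correction, Bst2, Rgs16 and Xlr4a passed 2-fold in HFD and stayed under 1.5-fold the opposite way in RC.

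Most genes of fat synthesis were higher at dusk on the high-fat diet. Of 19 measured genes, 3 were at least 2-fold higher and 0 lower at ZT14 in HFD. Above 0 lay 17 in HFD, 10 in RC and 18 in NOB, beside 4051 of all 8705 genes in HFD. The median was 0.34 in HFD, against 0.02 in RC. Pnpla3, a lipid droplet hydrolase, lay at 1.26 in HFD, beside the kept genes Thrsp and Elovl6. It was counted as gained, though in RC it was not detected at ZT2 and was at least 1.06-fold higher at ZT14. Its HFD difference was 0.85 with an offset of 50 and 0.80 with no background correction. Fasn, the fatty acid synthase, lay at 0.75 in HFD, and between 0.36 and 0.87 over the 6 other settings run. Its probe was dim, at 5.61 and 4.86 in HFD at ZT14 and ZT2, where the lowest detected levels were 5.04 and 4.85. It was detected on neither RC array, and whether this probe reports the level of Fasn was not tested. Of 14 lipid droplet genes, 1 was higher and 1 lower past 2-fold in HFD, against 4 and 0 in RC. G0s2, an inhibitor of the lipase ATGL, lay at 1.02 in HFD and 2.55 in RC, the coat protein gene Plin5 at 0.85 in HFD and 0.46 in RC, and Pparg, a receptor that drives fat storage, at -0.78 in HFD and -0.03 in RC.

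Fat oxidation, sterol synthesis and bile acid genes held few large differences. Of 21 fatty acid oxidation genes, 1 was at least 2-fold higher and 0 lower at ZT14 in HFD, with a median of -0.01. It was Acot1, a cytosolic thioesterase, at 1.06 in HFD and 0.29 in RC. Their regulator Ppara differed by -0.56 in HFD and 0.67 in RC. None of 18 cholesterol genes and none of 13 bile acid genes passed 2-fold in HFD, with medians of 0.00 and -0.12. Cyp7b1, an oxysterol hydroxylase that is also in the male-biased list, lay at -1.0 in HFD, just short of 2-fold, and at 0.43 in RC.

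Genes of the unfolded protein and integrated stress responses were lower at dusk on the high-fat diet. Of 22 measured, 0 were higher and 6 lower by at least 2-fold at ZT14 in HFD. In HFD 20 lay below 0, against 9 in RC, with medians of -0.45 in HFD and 0.05 in RC. Besides Chac1, these 6 were the asparagine synthetase gene Asns, at least 2.10-fold lower and not detected at ZT14, the pseudokinase gene Trib3 at -1.21, and 3 genes of the endoplasmic reticulum, Calr at -1.05, Creld2 at -1.04 and Sdf2l1 at -1.01. Sdf2l1 lay outside the naming rule and was named after its value was seen. Creld2, an ER stress protein, was at 7.67 and 8.71 in HFD at ZT14 and ZT2, against 10.79 and 10.63 in RC at ZT14 and ZT2. With an offset of 50 in place of 16, or with no background correction, 1 of the 22 passed 2-fold.

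Of 12 heat shock genes, none passed 2-fold in either direction in HFD, and the median was 0.10 in HFD, against 0.44 in RC. Hsp90aa1, a cytosolic chaperone, was at 7.60 and 7.52 in HFD at ZT14 and ZT2, against 9.02 and 8.26 in RC at ZT14 and ZT2. Among 9 glucocorticoid-responsive genes, Dusp1 alone passed 2-fold in HFD. Fkbp5, an immunophilin induced by the glucocorticoid receptor, was at 7.62 and 6.72 in HFD at ZT14 and ZT2, against 9.10 and 6.40 in RC at ZT14 and ZT2. Its dusk excess was 0.90 in HFD and 2.71 in RC, which placed it between the limits of the classes.

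For glucose and insulin, 1 of 19 measured genes was higher and 2 were lower by at least 2-fold at ZT14 in HFD, with a median of 0.02. The higher one was Ppp1r3b and the lower ones were Ppp1r3g and Irs2, an insulin receptor substrate, at -1.03 in HFD and -0.90 in RC. With an offset of 50 or no background correction, Irs2 fell short of 2-fold in HFD, and 1 of the 19 was lower past 2-fold. Of 25 genes of oxidative phosphorylation, 0 passed 2-fold either way. In HFD 22 lay above 0, against 11 in RC, with medians of 0.18 in HFD and -0.04 in RC. Cox7b, a subunit of cytochrome oxidase, lay at 0.74 in HFD and -0.63 in RC. Of 8 NRF2 target genes, 1 was at least 2-fold higher at ZT14 in HFD, the heme oxygenase gene Hmox1 at 1.40 in HFD and 0.05 in RC. Hmox1 lay at 0.86 and 0.80 in HFD with an offset of 50 and with no background correction, where 0 of the 8 passed. Of 18 acute phase genes, 2 were at least 2-fold higher, Hamp2 and the serum amyloid gene Saa2 at 1.15 in HFD and 0.62 in RC. Saa2 fell short of 2-fold in HFD with an offset of 50 or no background correction, where 1 of the 18 passed.

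**Figure D4:**
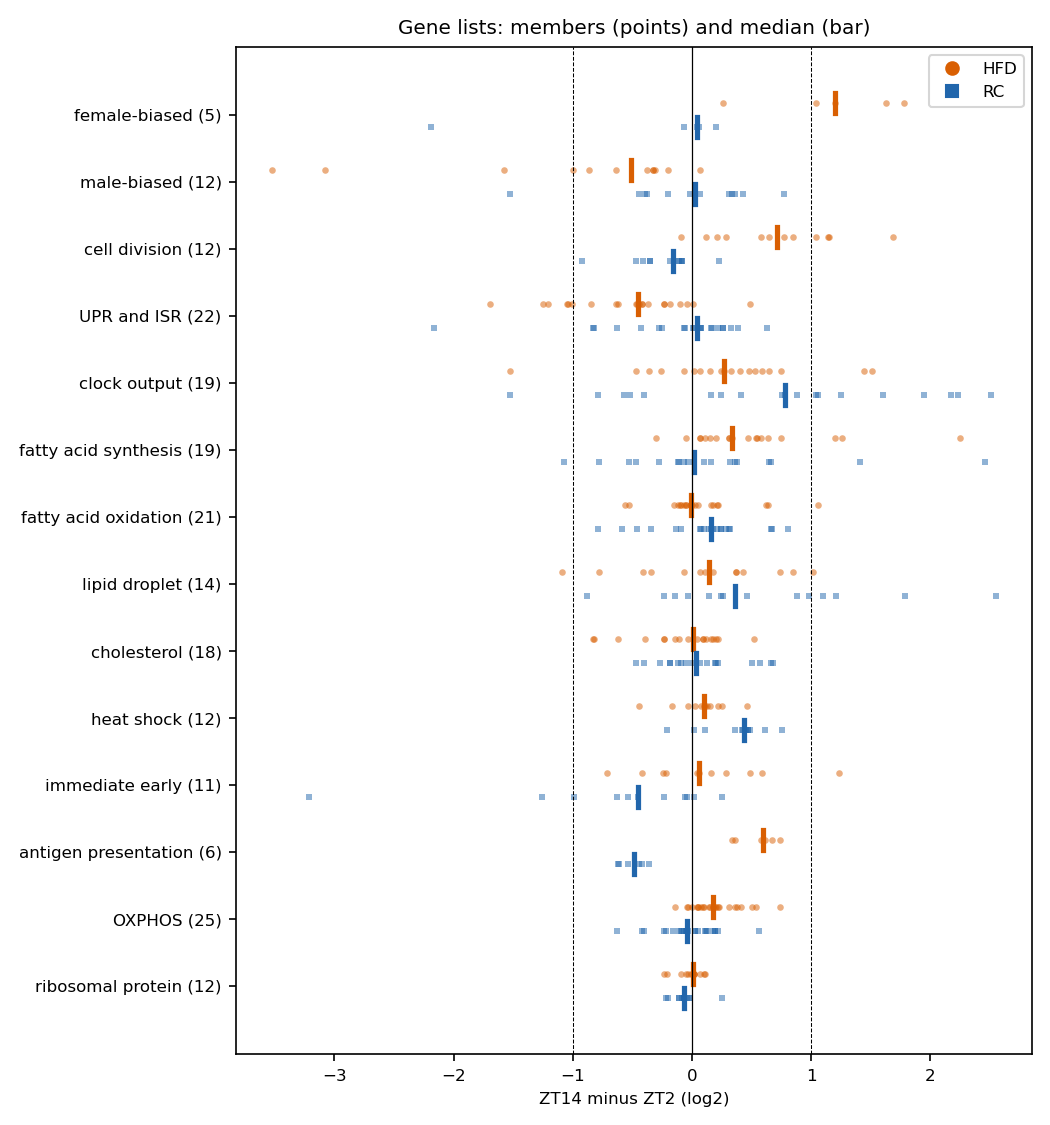
Day-night difference (log2, ZT14 minus ZT2) of the measured members of gene lists, with 1 point per gene, the median as a bar, HFD as circles and RC as squares. The HFD median of cell division, at 0.71, and that of female-biased genes, at 1.2, lie right of 0, while those of the stress response, at -0.45, and of male-biased genes, at -0.51, lie left of it.

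Markers of other cell types were read beside these differences. Of 6 antigen presentation genes, all lay above 0 in HFD and below 0 in RC, none past 2-fold in HFD, with medians of 0.59 in HFD and -0.49 in RC. Their summed linear level was 4357 in HFD at ZT14 and 2838 in HFD at ZT2, against 1117 in RC at ZT14 and 1554 in RC at ZT2. Cd74, the invariant chain of MHC class II, was at 10.57 and 9.99 in HFD at ZT14 and ZT2, against 8.71 and 9.07 in RC at ZT14 and ZT2. Macrophage markers went with the antigen presentation genes in RC, where 14 of 15 lay below 0 with a median of -0.57. In HFD the median of these 15 markers was 0.09, with 9 above 0 and 0 past 2-fold. The brightest of them were divided in HFD, with Lyz2 at 0.33 and C1qb at 0.16, but Vsig4 at -0.75 and Clec4f at -0.51. The summed level of the 15 markers was 5827 in HFD at ZT14 and 5972 in HFD at ZT2, against 2847 in RC at ZT14 and 4092 in RC at ZT2. Among 3 lymphocyte markers Ccl5 passed 2-fold, while Cd79b lay at 0.18 in HFD and Cd3d was detected on 1 HFD array. The part of immune cells in the gained genes was not tested.

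Skeletal muscle transcripts were set aside because their levels differed between the ZT14 and ZT2 arrays of HFD and of RC. In NOB their median difference was 0.06. With 1 pool per time, a difference between times and a difference between pools cannot be told apart. Of the 28 measured, 26 were detected in HFD at ZT14 and 23 in HFD at ZT2, against 28 in RC at ZT14 and 18 in RC at ZT2. Their median level was 6.57 in HFD at ZT14 and 5.32 in HFD at ZT2, against 7.75 in RC at ZT14 and 5.33 in RC at ZT2. Of its 4 brightest members, the cytochrome oxidase subunit gene Cox8b lay at 1.22 in HFD and 1.12 in RC. The other 3 did not share this: Csrp3, a LIM protein of muscle, lay at 0.07 in HFD and -0.51 in RC, Tpm1, a tropomyosin, at -0.08 in HFD and -0.28 in RC, and the small heat shock protein gene Hspb6 at 0.19 in HFD and 0.50 in RC. In HFD, 12 of the 28 were at least 2-fold higher at ZT14 and 0 lower, against 19 and 0 in RC, and 12 would have counted as kept. The list does not name every muscle gene, and the part of muscle RNA in the differences that were retained was not tested.

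**Figure D5:**
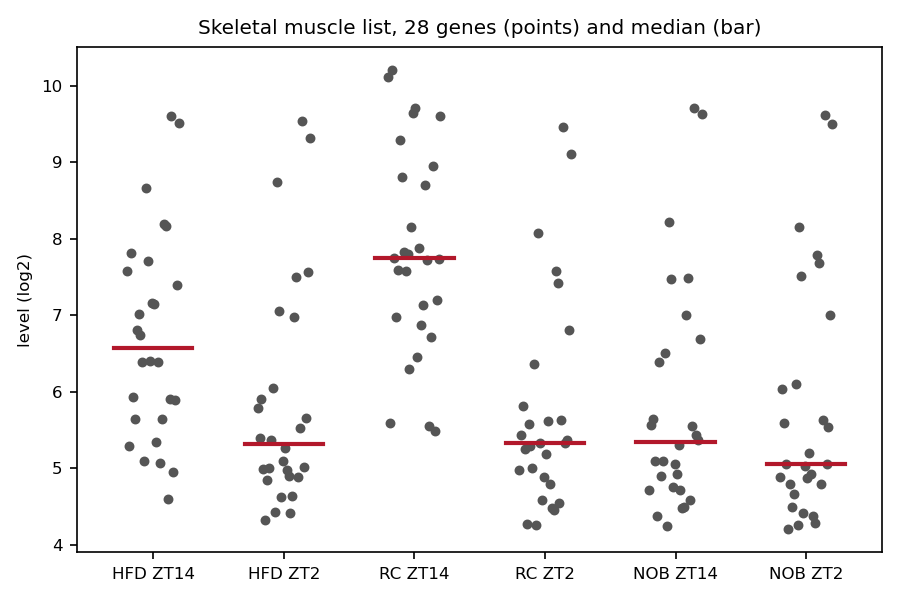
Log2 level of the 28 measured skeletal muscle genes on each of the 6 arrays, with 1 point per gene and the median as a bar. The median is 7.75 in RC at ZT14 and 6.57 in HFD at ZT14, and lies between 5.06 and 5.34 on the other 4 arrays.

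The arm with nobiletin on the same diet gave a further pair of arrays with no array in common with HFD. In NOB, the ZT14 level was 2-fold or more above the ZT2 level in 64 genes (0.735%) and below it in 39 (0.448%). Of the 8485 genes past 2-fold in neither HFD nor RC, 504 passed 1.5-fold in NOB, 369 of them the same way as in HFD. Of the 92 genes past 2-fold in HFD, 38 passed 1.5-fold the same way in NOB and 14 the opposite way. Dbp, Rgs16 and Serpina1e were lower at ZT14 in both, at -2.01, -1.53 and -2.41 in HFD, against -1.63, -1.97 and -2.08 in NOB. Hamp2 lay at 1.58 in HFD and -1.56 in NOB. Of the 88 lost genes, 60 were under 1.5-fold in NOB, beside 7981 of those 8485 genes. The other 28 lost genes passed 1.5-fold in NOB, 23 of them with the sign they had in RC and 20 with the sign they had in HFD. Of the 504 genes above, past 2-fold in neither HFD nor RC, 296 had in NOB the sign they had in RC. Among the 23 lost genes were Noct at 1.35 and Cyp2b10 at 1.65 in NOB. Whether nobiletin changed the day-night difference of the lost genes was not tested.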

How the data were processed

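The deposited non-normalized table held, per the file headers, per probe and array a mean bead intensity and the p-value of its detection. The submitters' processing notes name GenomeStudio, with the version and options not given in the sources used here. The authors' processed matrix held intensities on a linear scale, with a median of 3.5 in every column and a lowest value of -15.9, and its values look background-subtracted and quantile normalized. Each column followed its own array (r = 0.966 to 0.984 over probe-centred values, with 0.349 as the best match to another array), so its direction was settled, while the amount subtracted and the centring stay unknown.

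Here the non-normalized intensities of all 6 arrays were corrected and quantile normalized with neqc of limma 3.58.1 in R 4.3.3, with an offset of 16, and put on the log2 scale. The offset shrinks the fold of dim genes. Of 45281 probes, 34885 carried 1 symbol, 18 several and 10378 none listed; 34807 matched a gene identifier of RefSeq's GRCm38.p6 table, with 0 symbols changed. Of the 14736 detected probes 1982 had no single symbol and were left out. The probe with the highest mean over all 6 arrays stood for a gene. All 24 genes past 2-fold in HFD with several detected probes had these in the same direction.

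The sorting rule left 264 genes unclassed that were detected in RC and on neither HFD array, 12 of them past 2-fold in RC. Named were all measured clock genes, the 10 genes with the largest positive and 10 with the largest negative HFD difference among those detected on both HFD arrays, the 10 with the widest gap in the lost, gained and reversed classes among those detected on all 4 arrays (both without clone or predicted-locus names), up to 6 per pathway list and the brightest markers. The members and lists were chosen with earlier results of these data known. No test was run, since each group is 1 array, which limits the precision of every value. The steps were tested on simulated data. List members with no measured probe are not analysed here.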

Additional observations from a re-analysis of the deposited data

Results flagged for a closer look

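In 10 genes the day-night difference had opposite directions in the 2 diets, at least 2-fold in 1 of them and at least 1.5-fold in the other, with detection on all 4 arrays. Each diet has 1 array per time, so the difference between the diets was not tested. Given as the HFD difference minus the RC difference on the log2 scale, it was positive for 7 genes. These were Cyp2a4 at 3.82, Gsta1 at 2.59, Hamp2 at 2.5, Xlr4a at 2.42, Gsta2 at 2.18, Arntl at 1.93 and Bst2 at 1.73, all of them higher at ZT14 in HFD and lower at ZT14 in RC. It was negative for Cidea at -2.89, Rgs16 at -2.31 and Egfr at -2.27, which were lower at ZT14 in HFD and higher at ZT14 in RC. Gsta1 with Gsta2, and Cyp2a4 with Cyp2a5, are near-identical pairs, and the share of signal between their probes was not tested. The directions stayed opposite in all 10 genes in the 6 other settings run. With an offset of 50 or no background correction, Arntl did not reach 2-fold in either diet, and Bst2, Rgs16 and Xlr4a were under 1.5-fold in RC. Xlr4a was so too, at -0.58, with median scaling and with the 4 HFD and RC arrays alone, and Egfr lay at -0.99 in HFD with the mean over its probes.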

How the results depend on the processing

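Background handling and the fold threshold moved the counts. With an offset of 50, 24 genes were at least 2-fold higher and 18 lower at ZT14 in HFD, and 12 were kept, 44 lost, 20 gained and 6 reversed. With no background correction these counts were 21, 18, 12, 37, 20 and 6. All genes past 2-fold in HFD in both of these settings were among the 60 and 32 of the report. With 1.5-fold in place of 2-fold, 271 genes were higher and 215 lower, and 114 were kept, 378 lost, 151 gained and 140 reversed. With muscle genes retained, 31 genes were kept. Requiring detection on both HFD arrays or on all 4 arrays, a detection p under 0.05, median scaling, the authors' values and the mean over probes moved no count by over 1.5 times. Of 2112 recomputed differences of named genes, 27 moved by over 1.5-fold, and 0 of those past 2-fold changed sign, while some smaller ones did. No array could be left out, since each group has 1. No paired analysis was possible because each group has 1 array and the labels carry no replicate numbers. Signal over background limits the differences of genes near 5 on the log2 scale.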

Other observations

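Of the probes with no single symbol, 15 were higher and 7 lower by at least 2-fold at ZT14 in HFD. Among genes detected on both HFD arrays, Ucp1, the uncoupling protein of brown fat, and Fabp3, a fatty acid binding protein of heart and muscle, were chosen after their values were seen. Ucp1 was at 6.97 in HFD at ZT14 and 5.81 in HFD at ZT2, against 7.11 in RC at ZT14 and 6.16 in RC at ZT2. Fabp3 was at 7.08 in HFD at ZT14 and 5.95 in HFD at ZT2, against 7.10 in RC at ZT14 and 6.15 in RC at ZT2. Both therefore lay higher at ZT14 in HFD and in RC, as most skeletal muscle genes did, and neither is in the muscle list. Adipoq, the adipocyte hormone adiponectin, was at 5.85 in HFD at ZT14 and 5.29 in HFD at ZT2, against 6.98 in RC at ZT14 and 6.07 in RC at ZT2. The other measured adipocyte gene, Lep, did not share this in RC, where it was at 5.30 at ZT14 and 5.35 at ZT2. In HFD, Lep was at 5.55 at ZT14 and 4.77 at ZT2, where it was not detected. In NOB, where the muscle genes had a median difference of 0.06, Ucp1 lay at -1.51, Fabp3 at -0.42 and Adipoq at -0.08. Cox8b of the muscle list lay at -0.79 in NOB. The part of adipose tissue RNA in the differences of this report was not tested.

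The hemoglobin genes were flat in HFD and lower at ZT14 in RC. Hba-a1 was at 13.66 in HFD at ZT14 and 13.47 in HFD at ZT2, against 12.93 in RC at ZT14 and 14.02 in RC at ZT2. The summed level of 4 red cell genes was 29889 in HFD at ZT14 and 28610 in HFD at ZT2, against 19562 in RC at ZT14 and 36371 in RC at ZT2. The neutrophil gene S100a8 lay at -1.06 in HFD, and in RC it was not detected at ZT14 and was at least 1.97-fold lower there.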
